A study of Mus musculus with 6 samples.

Results

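The genes described here are the effectors of the interferon response: the 49 genes given by name as interferon-stimulated effectors, found by exact gene symbol among the 54532 genes of the count table. All 49 were present. They were followed in the 6 libraries of a mouse tumour study. The tumour was 2208L, a mouse mammary tumour carried by Balb/c mice, and no treatment was given. The 3 CTC libraries were made from circulating tumour cells that had been propagated after they were taken from the blood, and the 3 PT libraries from the primary tumours, dissociated and enriched for tumour cells. Blood and tumours came from matched mice, and a PT library and the CTC library of the same number are labelled as matched and called a pair here. The sources used here state no age, sex, genotype or length of propagation. Propagation was described for CTC only, so growth outside the tumour and origin in the blood cannot be told apart.

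Interferons are secreted proteins that bind receptors on the cell surface and activate JAK kinases. The kinases activate transcription factors that bind the interferon-stimulated response element in promoters, while interferon gamma acts through a different element. The genes switched on include those that tag proteins with ISG15, bind or degrade foreign RNA, hold virus particles at the membrane or attack vacuoles inside the cell. Interferon-stimulated genes are also known to be expressed in tumour cells without infection.

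The members were most abundant in CTC replicate 3, where 46 of 49 had their highest level among the 6 libraries. Of 22731 genes with at least 3 counts in a library, 15.8% were highest there. The exceptions were Ifit2, highest in CTC replicate 1, Isg20, highest in PT replicate 1, and Ifi27, highest in PT replicate 2. Levels are CPM, read counts divided by library size, scaled by the trimmed mean of M values (TMM). Summed over the 49 members they were 1000.2, 653.3 and 4835 CPM in CTC replicates 1, 2 and 3 and 859.0, 988.5 and 554.9 CPM in PT replicates 1, 2 and 3. CTC replicate 3 was therefore high, while the other CTC libraries lay inside or near the range of PT. Of the members highest in CTC replicate 3, the level there exceeded the next highest library by between 1.32-fold and 34.4-fold, with a median of 5.19-fold. Summed over marker genes, the same library had the highest level for adipocytes (350.3 CPM), fibroblasts (164.9 CPM) and neutrophils (26.9 CPM). It had the lowest for epithelial cells (2728 CPM). Few genes made up the high sums: nearly all Fabp4 for adipocytes, mostly Col3a1 and Pdgfra for fibroblasts and mostly S100a8 for neutrophils. Only 2 of 7 fibroblast genes with at least 3 counts were highest there. The part of these marker genes in the level of the members was not tested.

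**Figure D1:**
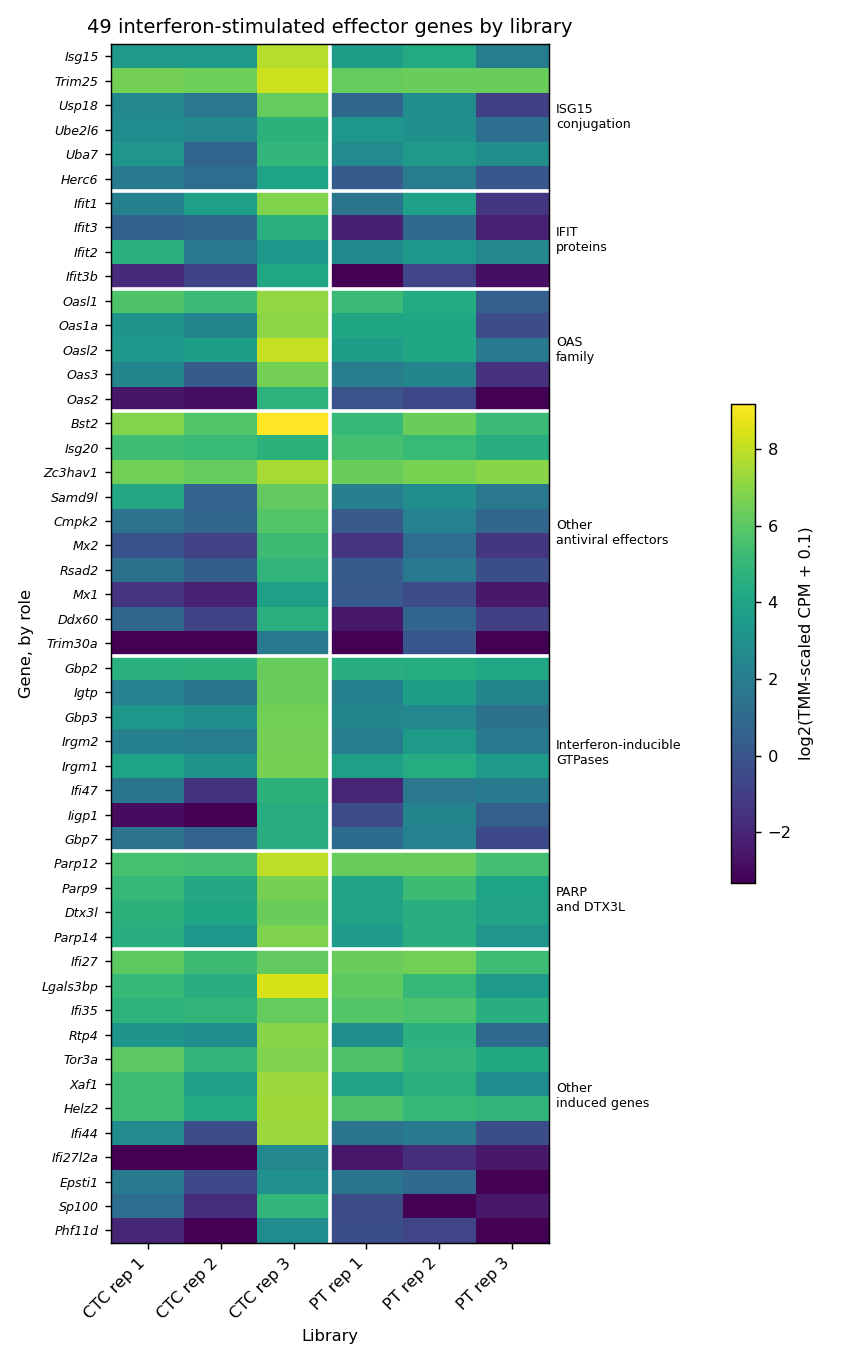
Heat map of the 49 members (rows, grouped by role) in the 6 libraries (columns), coloured by log2 of the TMM-scaled CPM plus 0.1. The CTC rep 3 column is the brightest for 46 of the 49 genes, and Trim30a, Ifi27l2a and Phf11d are dark in nearly all other columns.

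The main test, with edgeR, called no member and no other gene between CTC and PT. With 3 libraries per group, a lack of calls does not show that the groups were alike. In the quasi-likelihood test of edgeR across 13874 genes, 0 of the 47 members tested passed an adjusted p (Benjamini-Hochberg over all genes tested) of 0.05, and 0% of all genes were called in either direction. The adjusted p-values of the members lay between 0.726 and 0.996. At an unadjusted p under 0.05 the test gave 10 members higher in CTC and 0 lower, against 3.32% of all genes higher in CTC and 3.31% lower. limma-voom and edgeR with the pair as a block called 0 members as well. DESeq2 called 0 of the 32 members to which it gave an adjusted p, with a smallest value of 0.0848 for Bst2 (0.298% of genes were called higher in CTC and 0.333% lower). The remaining members got no p-value from DESeq2, which withholds it where the count of a library is flagged as extreme, so it left them undecided. All of them were highest in CTC replicate 3, by 3.60-fold (Trim30a) to 34.4-fold (Ifit3b) over the next library. Isg15, Usp18, Ifit3, Ifit3b, Oasl2, Cmpk2, Mx2 and Gbp3 were among them. DESeq2 with the block called Ifit3 (adjusted p = 0.0494), where 0.878% of genes were called higher in CTC and 0.989% lower. When edgeR was run on all genes with a count, it called 14 members higher in CTC and 0 lower, where 0.443% of genes were called higher and 0.285% lower. These were Isg15, Usp18, Ifit3, Ifit3b, Oasl2, Oas3, Bst2, Samd9l, Cmpk2, Mx2, Gbp3, Xaf1, Ifi44 and Sp100. All 14 were highest in CTC replicate 3. In the filtered edgeR fit without that library the fold change was below 0 for Isg15, Oas3, Cmpk2 and Mx2 and above 0 for the others. The calls depended on the filter: for Gbp3 the log2 fold change was 3.04 with it and 3.05 without, while the unadjusted p of edgeR was 0.0160 and 1.6e-05.

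The direction of the group means rested on CTC replicate 3. Of the 47 tested members 45 had a log2 fold change (CTC minus PT) above 0, with a median of 2.02, beside 54.1% of all tested genes and a median of 0.05. Without CTC replicate 3 the fold change was above 0 for 24 of 47 members, with a median of 0.06, beside 51.3% of genes and a median of 0.02. In that fit 1 member, Iigp1, had an unadjusted p under 0.05, and it was lower in CTC (edgeR, adjusted p = 0.189), beside 5.97% of genes higher and 6.15% lower at that level.

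**Figure D2:**
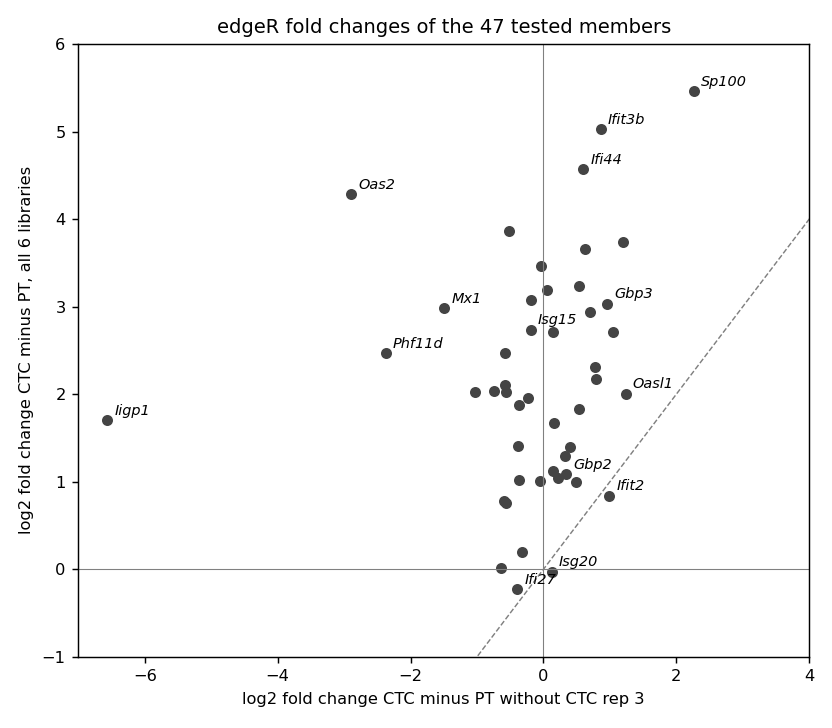
Log2 fold change of CTC over PT for the 47 tested members, with all 6 libraries (vertical axis) against the fit without CTC replicate 3 (horizontal axis); the dashed line marks equal values. Most points lie above 0 on the vertical axis and on both sides of 0 on the horizontal axis, while Ifit2, Isg20 and Ifi27 lie near the dashed line. The horizontal value of Iigp1 rests on 1 count in the remaining CTC libraries and depends on the prior count of the fit.

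Within pairs, the members went different ways. In pair 3 all 47 tested members were higher in CTC than in PT, with a median difference of 4.67 in log2 CPM (prior count 2). In pair 2 only 5 of 47 were higher in CTC, with a median difference of -1.17. In pair 1 the count was 33 of 47 and the median 0.36. Of all tested genes, 49.5%, 49.6% and 52.6% were higher in CTC in pairs 3, 2 and 1. The 5 members that were higher in CTC in every pair were Trim25, Oasl1, Gbp2, Gbp3 and Sp100, beside 15.4% of all tested genes.

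Both libraries of pair 3 stood at an end of the range. PT replicate 3 had the lowest level of 26 of the 47 tested members, and it was the lowest library for 15.6% of tested genes. For 25 members CTC replicate 3 was the highest and PT replicate 3 the lowest of the 6 libraries, a pattern of 1.73% of tested genes. Members also varied within the remaining 5 libraries: the highest exceeded the lowest by a median of 5.40-fold, against 2.44-fold for all tested genes, with values under 3 counts set to 3 counts. Of these 5 libraries PT replicate 2 was the highest for 22 members, CTC replicate 1 for 13, PT replicate 1 for 9, PT replicate 3 for 2 and CTC replicate 2 for 1. The shares of all tested genes were 15.0%, 27.6%, 23.0%, 19.2% and 15.2% in the same order, so that CTC replicate 1 held about the share of members that it held of all genes.

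Promoter sequences are shown for some of the members whose windows hold the core of the interferon-stimulated response element. Ifit2, which lacks it in its windows and was not highest in CTC replicate 3, is shown as well. Ifi44 and Oasl2 also lack it in their windows and were highest in that library. The windows are RefSeq sequences on GRCm38.p6, from 250 bases before to 50 after the annotated start, written 5′ to 3′ along the gene. Capitals mark GAAA, any 2 bases and GAAA, read on either strand, the core of the interferon-stimulated response element, with neighbouring matches that overlap joined.
Isg15, chr4:156200769-156201068, minus strand: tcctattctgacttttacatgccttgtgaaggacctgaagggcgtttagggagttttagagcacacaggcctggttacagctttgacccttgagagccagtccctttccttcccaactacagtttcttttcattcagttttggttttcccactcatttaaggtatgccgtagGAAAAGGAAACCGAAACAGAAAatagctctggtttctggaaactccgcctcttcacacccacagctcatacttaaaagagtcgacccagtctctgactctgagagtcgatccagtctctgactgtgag
Bst2, chr8:71537423-71537722, minus strand: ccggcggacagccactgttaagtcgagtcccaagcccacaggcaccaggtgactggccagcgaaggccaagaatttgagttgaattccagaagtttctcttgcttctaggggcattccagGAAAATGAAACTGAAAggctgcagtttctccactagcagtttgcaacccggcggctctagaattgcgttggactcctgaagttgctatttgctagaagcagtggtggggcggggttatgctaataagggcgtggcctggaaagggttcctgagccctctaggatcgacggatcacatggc
Oas1a, chr5:120907476-120907775, minus strand: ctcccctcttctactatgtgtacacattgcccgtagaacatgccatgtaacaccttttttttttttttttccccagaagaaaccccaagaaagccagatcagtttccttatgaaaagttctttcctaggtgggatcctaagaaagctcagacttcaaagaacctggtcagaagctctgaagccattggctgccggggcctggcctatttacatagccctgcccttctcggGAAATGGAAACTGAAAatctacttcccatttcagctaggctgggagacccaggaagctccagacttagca
Gbp3, chr3:142559794-142560093, plus strand: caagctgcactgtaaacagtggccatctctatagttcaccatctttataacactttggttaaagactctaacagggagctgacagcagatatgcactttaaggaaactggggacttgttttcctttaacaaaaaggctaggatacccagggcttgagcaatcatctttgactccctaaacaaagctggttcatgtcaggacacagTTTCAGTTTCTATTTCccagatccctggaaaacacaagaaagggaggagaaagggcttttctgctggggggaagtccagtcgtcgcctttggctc
Ifit1, chr19:34640639-34640938, plus strand: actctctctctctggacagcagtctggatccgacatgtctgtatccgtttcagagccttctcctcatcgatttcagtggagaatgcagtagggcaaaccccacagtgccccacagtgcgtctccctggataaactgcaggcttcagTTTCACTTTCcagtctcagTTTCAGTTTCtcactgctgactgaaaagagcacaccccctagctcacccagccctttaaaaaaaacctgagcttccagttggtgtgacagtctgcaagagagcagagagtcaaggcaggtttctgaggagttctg
Ifit3, chr19:34583279-34583578, plus strand: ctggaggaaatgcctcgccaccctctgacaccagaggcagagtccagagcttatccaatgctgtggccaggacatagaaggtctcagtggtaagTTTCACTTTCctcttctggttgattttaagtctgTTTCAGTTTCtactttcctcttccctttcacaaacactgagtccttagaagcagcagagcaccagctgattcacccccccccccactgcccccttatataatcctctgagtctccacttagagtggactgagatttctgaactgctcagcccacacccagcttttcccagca
Ifit3b, chr19:34607707-34608006, plus strand: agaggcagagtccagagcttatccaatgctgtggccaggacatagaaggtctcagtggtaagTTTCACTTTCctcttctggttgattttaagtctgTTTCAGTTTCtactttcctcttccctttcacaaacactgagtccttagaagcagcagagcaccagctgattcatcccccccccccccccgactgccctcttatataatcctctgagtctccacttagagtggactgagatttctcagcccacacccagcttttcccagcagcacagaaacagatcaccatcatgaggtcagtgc
Ifit2, chr19:34550444-34550743, plus strand: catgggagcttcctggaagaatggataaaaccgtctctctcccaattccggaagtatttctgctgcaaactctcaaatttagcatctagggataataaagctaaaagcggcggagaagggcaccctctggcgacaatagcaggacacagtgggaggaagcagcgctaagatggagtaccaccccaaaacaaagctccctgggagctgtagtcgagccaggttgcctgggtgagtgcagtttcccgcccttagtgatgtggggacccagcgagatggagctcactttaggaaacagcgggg
In the window of Isg15 there are 3 overlapping matches, each 6 bases after the previous. Ifit3 and Ifit3b each hold a pair of matches spaced 34 bases apart, and those of Ifit1 are 19 bases apart. For Gbp3 and Ifit2 the upstream of 2 windows is shown. Neither window of Ifit2 holds the element, which says only that these letters are not in these windows.

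The table held windows for 38 of the 49 members. Of these, 16 (42.1%) held this core on either strand, against 3.99% of the 27025 genes in the table. With a further C after the last A, the counts were 12 members (31.6%) and 0.944% of genes. The palindrome TTCNNNGAA, the core of the interferon gamma-activated element, was found for 8 members (21.1%) and 9.55% of genes. Both elements were found for 5 members and 0.614% of genes. The members were listed as interferon-stimulated genes, so these shares may reflect the choice of list and do not describe levels in these libraries. Of the 27 matches to the response element core in member windows, 26 began before the annotated start, between 188 and 14 bases upstream. In the 16 members with a match, CTC replicate 3 stood at a median of 8.27 times the next highest library (range 2.96 to 34.4). In the 22 without a match the ratio had a median of 3.26 (range 0.396 to 24.9). Ifi44 was the highest of the latter. The ranges overlap, and a match describes letters, not a bound site.

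**Figure D3:**
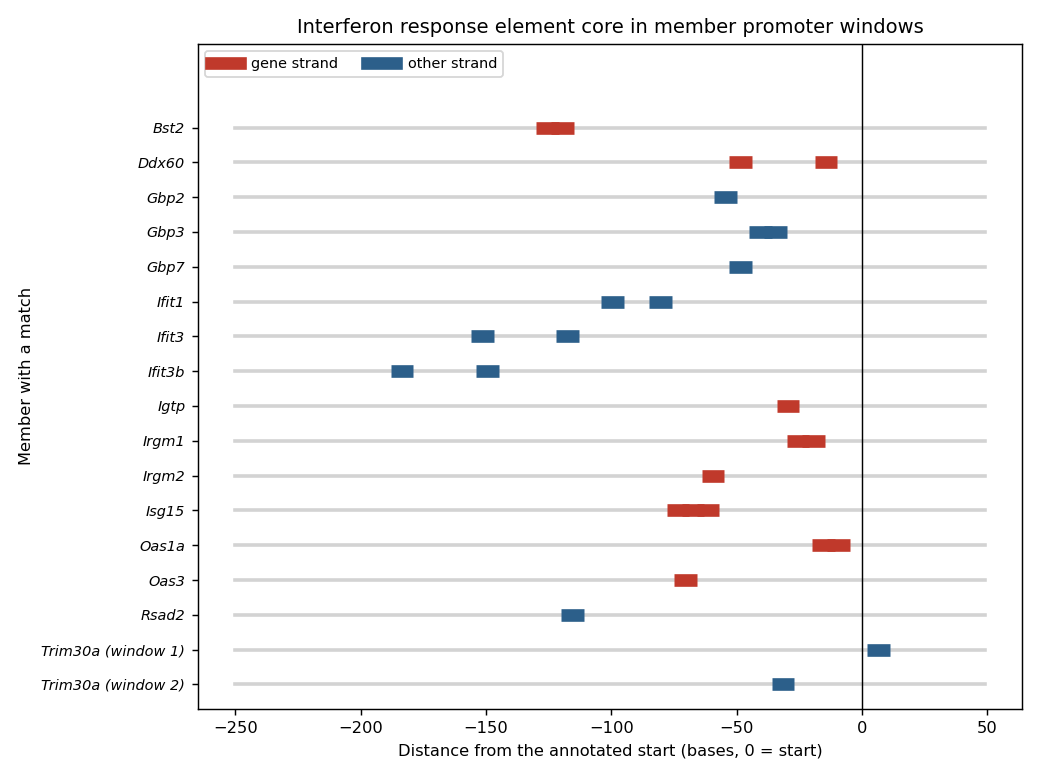
Positions of the response element core in the promoter windows of the 16 members that hold it, as distance in bases from the annotated start; red blocks read along the gene and blue blocks on the other strand. All but 1 of the 27 matches begin upstream of the start; the exception is in 1 of the 2 windows of Trim30a.

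Genes of the ISG15 system were highest in CTC replicate 3 for all 6 members. ISG15 is a small ubiquitin-like protein that is attached to other proteins by the activating enzyme UBA7, the conjugating enzyme UBE2L6 and, in the mouse, the ligase HERC6, and removed by USP18. Isg15 (ENSMUSG00000035692, chromosome 4, 156199424 to 156200818, GRCm38) was at 10.3, 10.8 and 219.7 CPM in CTC replicates 1, 2 and 3 and at 12.8, 19.7 and 3.65 CPM in PT replicates 1, 2 and 3. The other 5 libraries stayed at or below 19.7 CPM, and the CTC libraries other than replicate 3 lay inside the range of PT. Its means were 80.3 ± 121 CPM over the CTC libraries against 12.1 ± 8.05 CPM over PT (SD, n = 3 each), and the log2 fold change was 2.73 (SE 1.24, 95% interval -0.14 to 5.61), or -0.19 without CTC replicate 3. Usp18, which also blocks signalling at the interferon receptor, was at 5.68, 2.96 and 75.6 CPM in CTC replicates 1, 2 and 3 and at 1.73, 6.78 and 0.415 CPM in PT replicates 1, 2 and 3. Trim25, a ubiquitin ligase that activates the RNA sensor RIG-I, was abundant throughout, at 94.8, 86.0 and 300.1 CPM in CTC replicates 1, 2 and 3 and at 73.9, 79.9 and 79.7 CPM in PT replicates 1, 2 and 3. Its CTC libraries all lay above its PT libraries, by little in replicates 1 and 2, and its log2 fold change of 1.04 (SE 0.49) was 0.21 without CTC replicate 3. Ube2l6, Uba7 and Herc6 were 2.82, 2.96 and 4.07 times as high in CTC replicate 3 as in the next library.

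The 4 IFIT genes, whose products bind foreign RNA or block its translation, lie side by side on chromosome 19 between 34550694 and 34650009, but Ifit2 differed from the rest. Ifit1 was at 4.47, 13.9 and 112 CPM in CTC replicates 1, 2 and 3 and at 2.72, 13.9 and 0.290 CPM in PT replicates 1, 2 and 3, high in CTC replicate 3 and nearly equal in replicate 2 of both groups. Ifit3 was at 1.38, 1.75 and 24.2 CPM across the CTC libraries against 0.115, 1.80 and 0.124 CPM across PT, with a log2 fold change of 3.74 (SE 1.51), or 1.20 without CTC replicate 3. Ifit3b, a close copy of Ifit3, had 5, 12 and 453 counts across the CTC libraries against 0, 12 and 1 across PT, and reads shared by the copies could have been split between them. Ifit2 had 712, 84 and 256 counts across the CTC libraries against 160, 233 and 134 across PT. It was highest in CTC replicate 1, and in CPM its level in CTC replicate 3 was near that of PT replicate 2. Its log2 fold change was 0.84 (SE 0.68), but -0.10 without CTC replicate 1. The ratio of CTC replicate 3 to the highest other library was thus 0.396 for Ifit2 and 8.03, 13.4 and 34.4 for Ifit1, Ifit3 and Ifit3b.

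The OAS enzymes make short oligoadenylates that activate the ribonuclease RNase L, and all 5 genes of the family were highest in CTC replicate 3. Oasl2, an OAS-like protein, was at 10.2, 12.2 and 272 CPM in CTC replicates 1, 2 and 3 and at 12.8, 16.1 and 3.24 CPM in PT replicates 1, 2 and 3, 16.8 times the next library, with a log2 fold change of 3.19 (SE 1.31), or 0.06 without CTC replicate 3. Oas3 was at 4.83, 1.08 and 94.5 CPM across the CTC libraries against 3.76, 5.06 and 0.249 CPM across PT. Oas1a, 7.49 times the next library in CTC replicate 3, was at 8.63, 4.96 and 127 CPM across the CTC libraries against 16.6, 17.0 and 0.664 CPM across PT, higher in PT replicates 1 and 2 than in CTC replicates 1 and 2. Near-identical Oas1 genes lie beside it, so its level is uncertain. Oas2 had 2, 1 and 686 counts across the CTC libraries against 21, 13 and 0 across PT. Oasl1, which restrains translation of Irf7 mRNA, had another pattern: it was at 54.1, 36.8 and 141 CPM in CTC replicates 1, 2 and 3 and at 36.1, 20.3 and 1.29 CPM in PT replicates 1, 2 and 3, so that each CTC library exceeded each PT library, though CTC replicate 2 and PT replicate 1 differed by little. Its log2 fold change was 2.01 (SE 1.00), and 1.24 without CTC replicate 3. Summed over the family, PT replicate 3 had 5.44 CPM, the other PT libraries 59.1 and 70.1 CPM, CTC replicates 1 and 2 had 77.9 and 55.1 CPM, and CTC replicate 3 had 661.0 CPM.

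**Figure D4:**
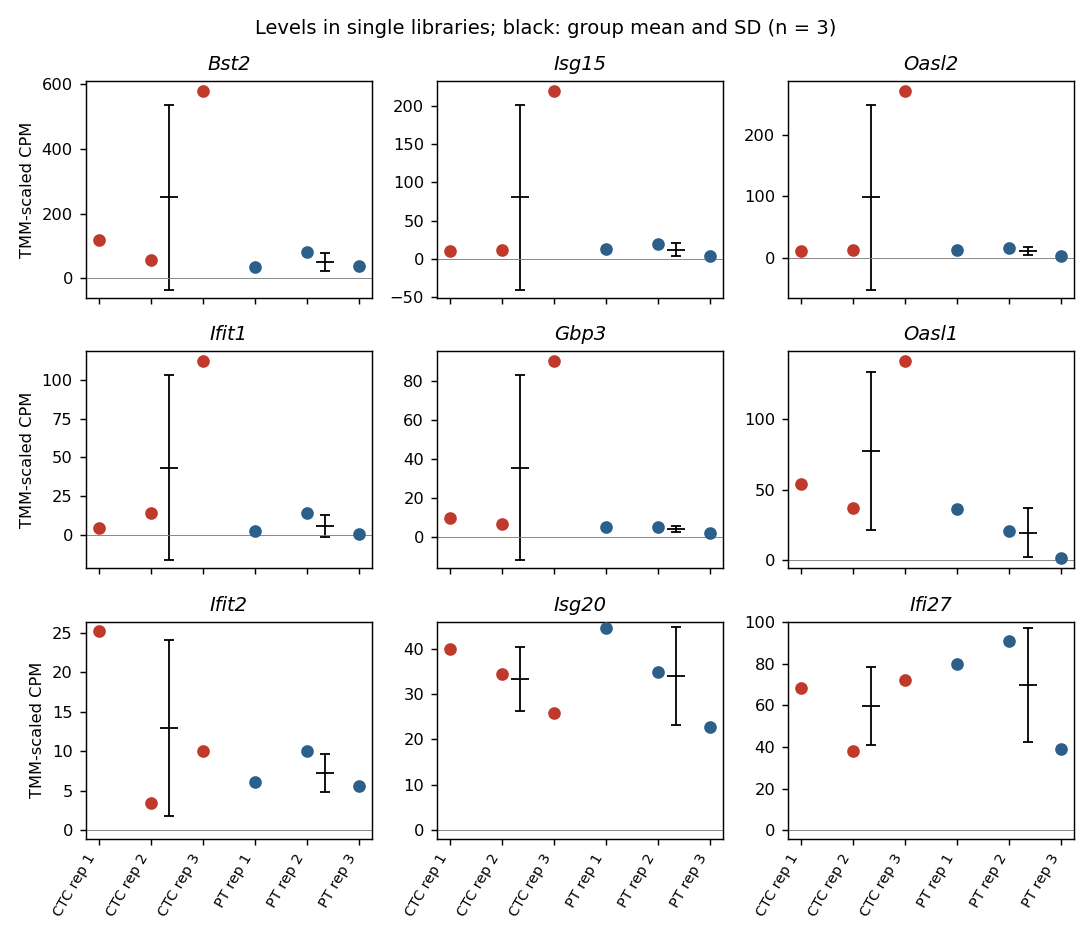
TMM-scaled CPM of 9 members in each library, with CTC in red and PT in blue; the black bar is the group mean with its SD (n = 3), and the vertical axes are linear with a range of their own. Bst2, Isg15, Oasl2, Ifit1, Gbp3 and Oasl1 are highest in CTC rep 3, whereas Ifit2, Isg20 and Ifi27 are highest in CTC rep 1, PT rep 1 and PT rep 2.

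Among the other antiviral effectors 9 of 10 were highest in CTC replicate 3. Bst2, or tetherin, which holds budding virus particles at the cell surface, had the highest level of any member in CTC replicate 3, and was at 118, 54.7 and 579.8 CPM in CTC replicates 1, 2 and 3 and at 33.2, 81.9 and 36.4 CPM in PT replicates 1, 2 and 3. Per kilobase of gene length, its level in CTC replicate 3 lay above that of 99.6% of tested genes, and in PT replicate 3 above 89.6%. Its log2 fold change was 2.31 (SE 0.85), and 0.77 without CTC replicate 3. Zc3hav1, which directs viral RNA with CpG dinucleotides to decay, was at 92.3, 74.8 and 189 CPM across the CTC libraries against 83.3, 102 and 126 CPM across PT, with a smaller difference between libraries than most. Isg20, an RNA exonuclease, was at 39.8, 34.4 and 25.7 CPM in CTC replicates 1, 2 and 3 and at 44.4, 34.7 and 22.7 CPM in PT replicates 1, 2 and 3. It was lower in CTC replicate 3 than in the other CTC libraries, and its log2 fold change was -0.03 (SE 0.34).

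Samd9l, a growth-restraining antiviral protein, was at 18.3, 1.42 and 73.4 CPM across the CTC libraries against 4.29, 6.87 and 3.11 CPM across PT. The nucleotide kinase gene Cmpk2 and its neighbour on chromosome 12, Rsad2, which encodes viperin, were 12.4 and 9.16 times as high in CTC replicate 3 as in the next library, and Cmpk2 was at 2.59, 1.67 and 57.3 CPM across the CTC libraries against 1.04, 4.64 and 1.62 CPM across PT. Mx2, annotated in the table as a polymorphic pseudogene, had 22, 11 and 960 counts across the CTC libraries against 7, 49 and 7 across PT, and Mx1, an antiviral GTPase that most laboratory strains carry in a defective form, had 8, 3 and 348 counts across the CTC libraries against 27, 15 and 2 across PT. Counts do not show whether these transcripts were intact. Ddx60, a helicase, was 14.8 times as high there as in the next library. Trim30a had 0, 0 and 83 counts across the CTC libraries against 0, 21 and 0 across PT and was not tested, because its counts were too low for the filter.

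All 8 interferon-inducible GTPases, a group that includes proteins that attack the membranes of vacuoles that hold microbes, were highest in CTC replicate 3. Gbp3 (ENSMUSG00000028268, chromosome 3, 142560026 to 142573209, GRCm38) was at 9.83, 7.09 and 90.1 CPM in CTC replicates 1, 2 and 3 and at 5.10, 5.54 and 2.41 CPM in PT replicates 1, 2 and 3, and Gbp2 was at 25.6, 26.5 and 78.6 CPM across the CTC libraries against 22.9, 21.5 and 17.2 CPM across PT. In both genes each CTC library lay above each PT library, and the margin in replicates 1 and 2 was small beside that of CTC replicate 3. The log2 fold changes were 3.04 (SE 0.99) for Gbp3 and 1.09 (SE 0.48) for Gbp2, and 0.96 and 0.34 without CTC replicate 3. Igtp was at 4.54, 2.71 and 83.1 CPM across the CTC libraries against 4.33, 12.7 and 5.23 CPM across PT, and Irgm2, which overlaps it on the same strand so that reads may be shared, was 8.50 times as high in CTC replicate 3 as in the next library. Outside CTC replicate 3 both were highest in PT replicate 2. Irgm1, Ifi47 and Gbp7 were 4.59, 7.31 and 5.22 times as high. Iigp1 had 1, 0 and 561 counts across the CTC libraries against 17, 112 and 31 across PT, nearly absent from CTC replicates 1 and 2 and present in every PT library. Reads of near-identical GBP genes may have been shared.

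Trim25, Oasl1, Gbp2 and Gbp3 were the only 4 of 47 tested members whose groups did not overlap, and all 4 were higher in CTC. Of all tested genes, 5.95% had CTC above PT and 6.16% below. With CTC replicate 3 left out the same count was 4 above and 1 below, against 15.8% and 14.4% of genes.

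The 3 ADP-ribosyltransferase genes and Dtx3l were all highest in CTC replicate 3, by 2.59 to 4.55 times the next library, and no other role group had so low an upper value. PARP9 works with the ubiquitin ligase DTX3L, PARP14 modifies signalling proteins and PARP12 acts on translation and viral proteins. Parp12 was at 45.8, 43.0 and 243 CPM in CTC replicates 1, 2 and 3 and at 76.4, 76.4 and 43.2 CPM in PT replicates 1, 2 and 3, where CTC replicates 1 and 2 lay near the lowest PT library. Parp9 was at 32.4, 18.7 and 99.4 CPM across the CTC libraries against 15.4, 38.4 and 15.1 CPM across PT. Dtx3l and Parp14 were 3.12 and 4.55 times as high in CTC replicate 3 as in the next library. Parp9 and Dtx3l overlap on opposite strands, and nothing states whether the counting kept the strand.

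Of the 12 remaining members 11 were highest in CTC replicate 3. Lgals3bp, a secreted glycoprotein, was at 33.6, 22.8 and 344 CPM in CTC replicates 1, 2 and 3 and at 66.7, 31.5 and 11.0 CPM in PT replicates 1, 2 and 3. Xaf1, an adaptor that promotes apoptosis, was at 38.7, 14.3 and 155 CPM across the CTC libraries against 14.8, 24.4 and 6.76 CPM across PT, with a log2 fold change of 2.18 (SE 0.86), or 0.78 without CTC replicate 3, and Ifi44 was at 6.39, 0.667 and 159 CPM across the CTC libraries against 2.72, 3.56 and 0.705 CPM across PT, 24.9 times the next library. Sp100, a nuclear body protein, had 62, 5 and 796 counts across the CTC libraries against 17, 0 and 2 across PT. Ifi35 was at 26.6, 29.1 and 75.9 CPM across the CTC libraries against 57.3, 49.9 and 22.7 CPM across PT and its log2 fold change of 0.02 (SE 0.51) was on the other side of 0 with other scalings (-0.01 with RLE size factors). Ifi27, a mitochondrial protein, was at 68.3, 38.2 and 72.3 CPM in CTC replicates 1, 2 and 3 and at 79.8, 90.9 and 38.8 CPM in PT replicates 1, 2 and 3, lowest in CTC replicate 2 and PT replicate 3, with a log2 fold change of -0.23 (SE 0.40). Helz2, Tor3a, Rtp4 and Epsti1 were 3.33, 1.64, 4.96 and 2.34 times as high in CTC replicate 3 as in the next library, and Rtp4 overlaps Masp1 on the other strand. Phf11d had 4, 0 and 169 counts across the CTC libraries against 18, 12 and 0 across PT. Ifi27l2a had 0, 0 and 144 counts across the CTC libraries against 2, 5 and 2 across PT and was not tested.

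Per kilobase of gene length, 39 of 49 members lay above the median tested gene in CTC replicate 3. The same count was 15 and 13 in CTC replicates 1 and 2 and 13, 16 and 8 in PT replicates 1, 2 and 3. In CTC replicate 3, 78 tested genes (0.562%) were at least 4-fold above every other library, and 31 were members. These were 39.7% of the 78 genes and 66.0% of the 47 tested members. No other library was at least 4-fold above the rest for any tested member, where the share of all genes was 0.591% in CTC replicate 1, 0.101% in CTC replicate 2 and 0.259%, 0.137% and 0.0288% in PT replicates 1, 2 and 3.

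The members are spread over 15 chromosomes, with 27 of them in 11 groups of genes within 1 Mb and 22 alone. The 672 other tested genes within 1 Mb of a member, with pathway genes left out, had a median deviation of -0.04 in log2 CPM between CTC replicate 3 and the median of the other 5 libraries. All tested genes stood at 0.02 and the tested members at 3.50. Of these neighbours 13.7% were highest in CTC replicate 3, against 14.1% of tested genes. With a window of 500 kb (384 genes) the share was 17.7% and the median -0.003. Of the 672 neighbours within 1 Mb, 21 deviated by more than 2, beside 378 of all 13874 tested genes. Relatives of the members outside the lists were not left out, and Oas1g, Oas1b and Sp140 were among the 21. The 5 neighbours with the largest deviations, named after their values were seen, were Gm4951, Gm20559, Inka1, Oas1g and Plin1, at 6.93, 5.04, 4.98, 4.04 and 4.03. Oas1g, a paralog of Oas1a, was at 3.44, 1.54 and 42.1 CPM across the CTC libraries against 2.49, 5.84 and 0.373 CPM across PT. Inka1 and Plin1 stayed below 3 CPM in every library. Around single members, the highest neighbour medians were 0.95 near Trim30a (8 genes) and 0.91 near Samd9l (4 genes). They were followed by 0.60 near Zc3hav1 and Parp12 (17 and 19 genes) and 0.50 near the IFIT genes (8 genes). The lowest were -0.40 near Bst2 (67 genes) and -0.31 near Helz2 (31 genes). Cmpk2 and Rsad2 had no tested neighbour.

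Genes upstream and beside the effectors were taken from 9 lists of the pathway, and 0 of the 67 tested genes in them passed in edgeR. Transcripts of the interferons themselves were near the limit of counting. Of 18 type I genes 12 had 0 counts in every library, for which 3 counts (0.107 to 0.129 CPM) is the upper limit, and the highest count of any was 9, for Ifne in CTC replicate 1. Ifnb1 had 3 counts in CTC replicate 3 and 0 elsewhere. Reads shared by the near-identical Ifna genes may have been lost. Ifng reached 3 counts, in CTC replicate 1, and Ifnl2 and Ifnl3 had 0.

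Of the receptor and kinase genes 2 of 9 were highest in CTC replicate 3, beside 15.8% of all genes with at least 3 counts in a library. Ifngr2, a chain of the interferon gamma receptor, was at 93.3, 73.6 and 46.1 CPM across the CTC libraries against 53.9, 71.9 and 25.9 CPM across PT. Jak1, the kinase of both receptor types, was at 165, 124 and 107 CPM across the CTC libraries against 65.0, 84.3 and 71.7 CPM across PT, without overlap and with a log2 fold change of 0.84 (SE 0.27). Of the transcription factor genes, Irf7, which amplifies type I interferon, was at 15.0, 7.80 and 294 CPM in CTC replicates 1, 2 and 3 and at 10.9, 24.0 and 3.20 CPM in PT replicates 1, 2 and 3, and edgeR called it without a filter on low counts (adjusted p = 0.0235). Irf1 was at 90.1, 70.3 and 96.5 CPM across the CTC libraries against 144, 113 and 79.9 CPM across PT, highest in PT replicate 1. Of the 11 STAT and IRF genes 4 were highest in CTC replicate 3. The median log2 fold change of the 10 tested was 0.30, or -0.54 without CTC replicate 3. Stat2 and Irf9, named here after their values were seen, were highest in CTC replicate 3, with Stat2 at 154 CPM against at most 31.5 CPM and Irf9 at 77.6 against 31.3 CPM.

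Of the nucleic acid sensor and adaptor genes with at least 3 counts, 8 of 16 were highest in CTC replicate 3, beside 15.8% of all such genes. Ifi204, a DNA sensor, had 1645, 1127 and 3278 counts across the CTC libraries against 1144, 597 and 1021 across PT, without overlap, and Mavs, the adaptor of the RNA sensors, was at 44.0, 64.1 and 54.2 CPM across the CTC libraries against 58.5, 47.9 and 48.2 CPM across PT. Of the MHC class I presentation genes 9 of 13 were highest in CTC replicate 3, with B2m, the light chain of MHC class I, at 306, 194 and 595 CPM across the CTC libraries against 243, 349 and 165 CPM across PT and Tapbp, or tapasin, at 197, 153 and 291 CPM across the CTC libraries against 317, 166 and 142 CPM across PT. Among genes associated with interferon gamma 5 of 9 were highest there. Cxcl10, a chemokine, was at 1.56, 3.96 and 13.3 CPM across the CTC libraries against 2.22, 0.987 and 0.332 CPM across PT, and Cd274, or PD-L1, at 4.01, 1.21 and 2.31 CPM across the CTC libraries against 0.575, 0.687 and 0.539 CPM across PT, without overlap. The MHC class II genes H2-Aa and H2-Ab1 had 0 counts in every library and H2-Eb1 had 1.

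Of the 12 targets of NF-kB, another inflammatory pathway, 0 were highest in CTC replicate 3. With 15.8% of all genes highest there, a count of 0 in so short a list does not set it apart. Cxcl1, a neutrophil chemokine, was at 424, 70.2 and 124 CPM across the CTC libraries against 78.9, 329 and 195 CPM across PT, and Nfkb2 at 320.3, 188 and 169.8 CPM across the CTC libraries against 309, 243 and 187 CPM across PT. Tnfaip3, a brake on NF-kB, was at 309.7, 69.0 and 32.3 CPM across the CTC libraries against 19.8, 60.5 and 25.8 CPM across PT and was called by edgeR without a filter on low counts (adjusted p = 0.0461). The median deviation of this list was 1.59 in CTC replicate 1 and -0.65 in CTC replicate 3. Of the 5 genes listed as feedback inhibitors (Socs1, Socs3, Pias1, Ptpn2 and Ptpn6), 0 were highest in CTC replicate 3, which is also near the share of all genes. Usp18, which also restrains the pathway, is counted with the ISG15 system above and was highest there. Socs3 was at 23.5, 47.7 and 108 CPM across the CTC libraries against 141, 143 and 141 CPM across PT, so that PT was above CTC without overlap, and the phosphatase gene Ptpn2 at 30.7, 17.1 and 27.1 CPM across the CTC libraries against 17.5, 35.5 and 33.2 CPM across PT.

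**Figure D5:**
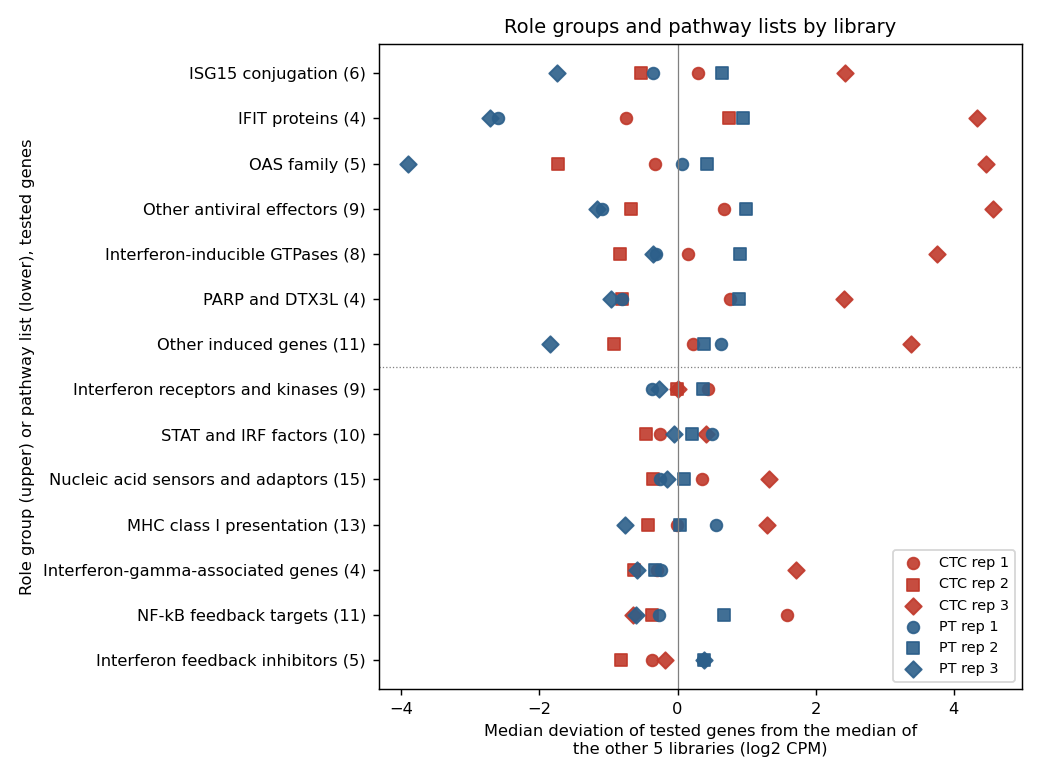
Median deviation of the tested genes of each role group (upper 7) and pathway list (lower 7) in a library from the median of the other 5 libraries, in log2 CPM; red is CTC, blue is PT, and the marker gives the replicate. CTC rep 3 lies to the right of all other libraries for the 7 role groups and for the sensor, MHC class I and interferon gamma lists, but not for receptors, STAT and IRF factors, NF-kB targets or feedback inhibitors.

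Libraries held between 23845953 and 27897320 counts. The 7 pan-leukocyte genes summed to 0.430 CPM in CTC replicate 3 and to between 0.871 and 2.72 CPM elsewhere, and in CTC replicate 3 Ptprc, Laptm5, Cd52, Vav1 and Ikzf1 had 0 counts, Cd53 had 5 and Coro1a 6. The macrophage genes summed to 4.50 CPM in CTC replicate 3 (1.24 to 23.9 elsewhere), with Adgre1, C1qa and C1qb at 0 and Cd68, Mrc1, Csf1r, Ly6c2 and Lyz2 at 91, 14, 5, 4 and 1 counts there. Csf1r had 157, 488 and 5 counts across the CTC libraries against 2, 32 and 2 across PT, and it was called higher in CTC by DESeq2 with the block (adjusted p = 0.000861) and by edgeR without a filter (adjusted p = 0.0358). The dendritic cell genes summed to 5.52 CPM (2.91 to 10.7 elsewhere), 131 of 141 counts from Zbtb46 and Clec9a, Siglech and Flt3 at 0, the T and NK cell genes to 0.743 CPM (0.124 to 2.22) and the B cell genes to 0.196 CPM (0.0417 to 0.558). The endothelial genes summed to 0.196 CPM (0 to 3.62). The neutrophil genes were highest in CTC replicate 3 at 26.9 CPM (1.38 to 18.9 elsewhere), of which 647 of 687 counts were S100a8, while Ly6g, Csf3r and Retnlg were at 0. The summed adipocyte and fibroblast genes were also highest in CTC replicate 3. The adipocyte genes summed to 350.3 CPM in CTC replicate 3, against up to 2.45 CPM in the rest, nearly all Fabp4. Fabp4, Cidec, Plin1 and Cfd, the 4 of 6 with at least 3 counts, were all highest there, at 8861, 35, 31 and 29 counts, and Adipoq and Lep were at 0. edgeR called Fabp4 without a filter (adjusted p = 0.00314). The fibroblast genes summed to 164.9 CPM (8.91 to 75.9 elsewhere), mostly Col3a1 (3184 counts) and Pdgfra (989 counts), with Col1a1 at 11 counts and Lum at 0. Col3a1 and Pdgfra were the only 2 of the 7 fibroblast genes with at least 3 counts that were highest there. The median deviation of the 5 tested fibroblast genes was -4.50, 0.35 and 0.42 in CTC replicates 1, 2 and 3. It was 1.80, -0.93 and 2.29 in PT replicates 1, 2 and 3. The 6 epithelial genes summed to 2728 CPM in CTC replicate 3, lower than the 4950 to 7813 CPM of the other libraries. In bulk RNA fewer cells of a type and less RNA per cell cannot be told apart.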

How the data were processed

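The authors deposited raw read counts per Ensembl gene, as whole numbers for 54532 genes, with a gene length in bases. HISAT2, GRCm38 and mm10 are named per the submitters' processing notes. The counter, annotation and strand setting: not given in the sources used here. Counts were tested with edgeR (version 4.0.16, R version 4.3.3; TMM, filterByExpr, glmQLFit and glmQLFTest) over 13874 genes, adjusted by Benjamini-Hochberg with a threshold of 0.05. Each SE is the fold change divided by the square root of F. The floor of 3 counts covers counting error only. limma (version 3.58.1) and DESeq2 (version 1.42.0) were alternatives, with the pair as a block, RLE and upper-quartile scaling, other filters and libraries left out. Members and lists were chosen with earlier results of these data known. In each role group the 3 members with the highest mean CPM per kilobase (2 in groups of 4) were given by library, with every member highest outside CTC replicate 3, called by a tool or without overlap; others were given by counts or ratios. The labels match same-numbered libraries, the source of the replicate block. Their deviations from the group means correlated at -0.015, 0.157 and 0.298 across genes for replicates 1, 2 and 3. The fits were tested on simulated counts with known changes, where DESeq2 made more false calls than edgeR or limma-voom in every run. Only false calls are compared here. The simulated counts used the spread that edgeR estimated for genes passing its filter, with no pair effect and no outlying library. They therefore do not show which fit is right for these data. Promoter windows were matched by symbol. 1 gene of the pathway lists is not reported here.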

Additional observations from a re-analysis of the deposited data

How the results depend on the processing

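No gene and no member passed with edgeR under RLE or upper-quartile scaling, a filter of 1 CPM, scaling factors without the members, or any library or pair left out (0 in each), nor with limma-voom. With the replicate block, edgeR called 0 genes and 0 members, and the median log2 fold change of the members was 0.94 in place of 2.02. The other pairing fit, DESeq2 with the replicate block, called 253 genes (119 higher in CTC, 134 lower) and 1 member. DESeq2 called 91 genes (43 higher, 48 lower) and 0 of the 32 members to which it gave an adjusted p. edgeR with no filter called 199 genes (121 higher, 78 lower) and 14 members. The median of the members ranged from 0.059 without CTC replicate 3 to 2.67 without PT replicate 2 with 1 library left out, and was -0.18 without replicate 3 of both groups and 3.17 without replicate 2 of both; the members above 0 numbered 24 to 47, and 18 without replicate 3 of both groups. A group left with 2 libraries shares the spread estimated over both. The count highest in CTC replicate 3 was 46 under every scaling, and that without overlap was 3 under RLE and upper-quartile scaling. Non-overlap without CTC replicate 3 (5 members) was added after seeing the data. For the named members 447 values kept direction and side of the threshold, 15 passed it only in the alternative and 37 changed sign; the cause was not tested.
Log2 fold changes that changed sign with the replicate block were Ifi35 -0.10, Isg20 0.00081. With RLE size factors, they were Ifi35 -0.011. With upper-quartile scaling, they were Ifi35 -0.0048. With DESeq2, they were Ifi35 -0.012. With DESeq2 with the replicate block, they were Ifi35 -0.13. With limma-voom, they were Ifi35 -0.051, Isg20 0.00046. Without CTC replicate 1, they were Ifit2 -0.10. Without CTC replicate 3, they were Zc3hav1 -0.32, Parp12 -0.56, Lgals3bp -0.37, Isg15 -0.19, Ifi35 -0.64, Isg20 0.12, Oas1a -0.75, Igtp -1.03, Oas3 -0.035, Cmpk2 -0.19, Mx2 -0.51. Without PT replicate 1, they were Isg20 0.22. Without PT replicate 3, they were Ifi35 -0.29. Without replicate 1 of both groups, they were Isg20 0.083, Ifit2 -0.18. Without replicate 2 of both groups, they were Ifi27 0.22. Without replicate 3 of both groups, they were Zc3hav1 -0.15, Parp12 -0.79, Lgals3bp -0.80, Oasl2 -0.37, Isg15 -0.63, Ifi35 -0.95, Parp9 -0.081, Oas1a -1.31, Igtp -1.23, Oas3 -0.58, Cmpk2 -0.42, Mx2 -0.93. With 1 library left out at a time, the ranges were Ifi35 -0.64 to 0.28, Isg20 -0.25 to 0.22, Ifit2 -0.10 to 1.27, Zc3hav1 -0.32 to 0.43, Parp12 -0.56 to 1.14, Lgals3bp -0.37 to 2.67, Isg15 -0.19 to 3.27, Oas1a -0.75 to 2.57, Igtp -1.03 to 2.65, Oas3 -0.035 to 4.04, Cmpk2 -0.19 to 3.94, Mx2 -0.51 to 5.50. Under 3 counts a level could not be told from 0 at this depth.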

Other observations

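Beside the members and the pathway lists, 43 further tested genes were at least 4-fold higher in CTC replicate 3 than in every other library. The 5 most abundant of them there, chosen after their values were seen, were Znfx1, Fabp4, Ly6a, Lgals9 and Ifi203. Znfx1, an RNA helicase gene, was at 55.8, 43.7 and 403 CPM across the CTC libraries against 46.5, 34.7 and 39.5 CPM across PT. Fabp4, a fatty acid carrier gene of adipocytes and other cells, was at 0.320, 1.46 and 347 CPM across the CTC libraries against 0, 2.19 and 1.41 CPM across PT. Ly6a, which encodes the surface antigen Sca-1, was at 0.0710, 1.17 and 237 CPM across the CTC libraries against 26.8, 8.93 and 42.8 CPM across PT, and was higher in each PT library than in CTC replicates 1 and 2. Lgals9, which encodes galectin-9, was at 31.0, 9.30 and 209 CPM across the CTC libraries against 30.9, 20.0 and 32.6 CPM across PT, and Ifi203, a gene of the interferon-inducible HIN-200 family, at 21.4, 10.7 and 179.9 CPM across the CTC libraries against 43.6, 17.0 and 26.7 CPM across PT.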
